A study of Mus musculus with 4 samples.

Results

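The genes examined here were 6 matrix metalloproteinases (Mmp2, Mmp8, Mmp9, Mmp12, Mmp14 and Mmp19) and 3 tissue inhibitors of metalloproteinases (Timp1, Timp2 and Timp3), taken by symbol from the 31055 features of a single-cell RNA-seq matrix of mouse lung tumors. Tumors were initiated by intratracheal Lenti-Cre in female mice and grew for 16 weeks, and all mice then received 4 mg doses of tamoxifen for 2 weeks. All 4 mice carried Lkb1XTR/XTR. The 2 Restored mice were Rosa26LSL-tdTomato/FLPo-ERT2 and the 2 Non-Restored mice were Rosa26LSL-tdTomato. In both groups Cre switches on the tdTomato reporter and inverts a gene trap in Lkb1, but only in cells that the lentivirus reaches. FLPo-ERT2, which excises the trap under tamoxifen, was carried by the Restored mice alone. Live cells of microdissected tumors were sorted after enzymatic digestion, with no selection for a lineage. The matrix analysed here pooled all 4 mice, and no file used here linked a cell to a mouse, so it counted as 1 sample. Restored and Non-Restored mice were therefore not compared, no p-value is given, and the intervals below reflect counting error alone, so that variation from mouse to mouse is outside them. Differences between cell classes may also carry unequal contributions of the 4 mice.

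Matrix metalloproteinases are zinc-dependent enzymes that cut collagens, elastin and other proteins of the extracellular matrix. Most are secreted as inactive pro-enzymes that are activated by removal of a pro-domain, while a few, such as Mmp14, sit in the cell membrane. Tissue inhibitors bind the active site of these enzymes and block them, and Timp2 also serves as the adaptor through which Mmp14 activates pro-Mmp2. Enzyme and inhibitor often come from different cells. Transcripts show which cells held the RNA, and neither the amount of protein nor its activity was measured here.

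The matrix held 20351 cells and 58624795 unique molecular identifiers (UMIs, each a captured transcript), a median of 1960 per cell. Of 19488 cells that passed the cell filter, 13963 were placed in a class by at least 3 of 8 gate markers, with 2 more than for any other class. The other 5525 cells (28.4%) stayed in no class. Neither metalloproteinases nor their inhibitors were among the markers. The 17 classes of at least 20 cells held 43 (plasma cell-like) to 3761 cells (T cell-like) and median depths of 909 (neutrophil-like) to 7605 UMIs. Of 51 further markers that were not used for gating, 41 were highest in their own class. The classical monocyte-like class had 0 of its 3 further markers and 3 of its 8 gate markers highest, and the type 2 dendritic-like class 1 of 3 and 5 of 8, so these classes are known only as the cells that passed their gates. Levels are given as CPM, the UMIs of a gene summed over a class and scaled to 1000000 UMIs of that class.

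All 9 genes were placed by the GENCODE vM21 annotation of GRCm38, the assembly of mm10. The neutrophil collagenase gene Mmp8 (ENSMUSG00000005800, chr9:7558456-7568485) and the macrophage elastase gene Mmp12 (ENSMUSG00000049723, chr9:7344381-7369499) lay on the same chromosome. Mmp2 (ENSMUSG00000031740) lay at chr8:92827291-92853420, Mmp9 (ENSMUSG00000017737) at chr2:164940780-164955850, Mmp14 (ENSMUSG00000000957) at chr14:54431612-54445364 and Mmp19 (ENSMUSG00000025355) at chr10:128790910-128800824. Timp1 (ENSMUSG00000001131) lay at chrX:20870166-20874735, Timp2 (ENSMUSG00000017466) at chr11:118301069-118355740 and Timp3 (ENSMUSG00000020044) at chr10:86300372-86349506. Timp1 overlaps Syn1 and Timp3 overlaps Syn3, both on the opposite strand. Those neighbours held 67 and 153 UMIs in the kept cells. Mmp12, Mmp19 and Timp2 also overlap annotated genes (Mmp1b with 0 UMIs, Tmem198b with 241 and Gm47093 with 9, and Cep295nl with 23), of which Cep295nl lies on the strand of Timp2.

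The sequence before the start site is shown for 3 genes with different leading classes below, namely a neutrophil-led enzyme (Mmp8), a macrophage-led enzyme (Mmp12) and a fibroblast-led inhibitor (Timp1). Each is the 250 bases before the RefSeq start on the plus strand of GRCm38.p6, at chr9:7558179-7558428, chr9:7344147-7344396 and chrX:20869916-20870165. Mmp12 had a second listed start, which is not shown, and windows were found for 6 of the 9 genes. Capitals mark matches on either strand to the letters of 5 motifs, of which no match shown overlaps another. The letters were TGANTCA for AP-1, TTGCNNAA for C/EBP, GGAAG for ETS, TATAAA for a TATA box and GGGCGG for a GC box.
Mmp8: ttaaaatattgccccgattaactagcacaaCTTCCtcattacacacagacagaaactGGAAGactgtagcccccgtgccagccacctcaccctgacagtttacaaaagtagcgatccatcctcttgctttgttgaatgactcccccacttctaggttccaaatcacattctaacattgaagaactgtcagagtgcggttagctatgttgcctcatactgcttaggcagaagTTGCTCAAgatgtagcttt
Mmp12: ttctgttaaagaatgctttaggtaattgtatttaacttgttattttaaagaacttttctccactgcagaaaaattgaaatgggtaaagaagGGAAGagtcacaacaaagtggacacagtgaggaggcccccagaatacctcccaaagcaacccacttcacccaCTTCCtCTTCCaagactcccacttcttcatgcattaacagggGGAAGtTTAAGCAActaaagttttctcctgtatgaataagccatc
Timp1: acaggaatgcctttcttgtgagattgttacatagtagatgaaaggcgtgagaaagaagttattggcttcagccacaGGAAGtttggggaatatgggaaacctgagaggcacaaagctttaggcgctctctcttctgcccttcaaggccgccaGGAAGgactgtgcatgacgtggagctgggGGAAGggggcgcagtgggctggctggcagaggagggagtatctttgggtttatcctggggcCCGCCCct
The Mmp8 window held an ETS match at positions -220 and -193 and a C/EBP match at -19, counted from the start site. The Mmp12 window held 4 ETS matches and a C/EBP match at -39. The Timp1 window held 3 ETS matches and a GC box at -8, and no C/EBP match. Among 32851 RefSeq windows of the same length, 64.1% held an ETS match, 9.56% a C/EBP match, 32.7% a GC box, 12.4% a TATA match and 6.75% an AP-1 match. The GC content was 44.8% for Mmp8, 40.0% for Mmp12 and 54.4% for Timp1, against a median of 52.4% over all windows. These matches describe the letters only.

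The first question was which class had the highest level of each gene. Fibroblast-like cells led for 5 of the 9 genes (Mmp2, Mmp14, Timp1, Timp2 and Timp3), neutrophil-like cells for Mmp8 and Mmp9, interstitial macrophage-like cells for Mmp12 and alveolar macrophage-like cells for Mmp19. As background, 13.6% of the 10197 genes with at least 20 CPM in 1 class were highest in fibroblast-like cells, 7.82% in neutrophil-like cells, 1.3% in interstitial macrophage-like cells and 8.38% in alveolar macrophage-like cells. All 9 genes passed that minimum. In 7 of the 9 the leading class stood at least 2-fold above the next one, which held for 26.4% of the 10197 genes. Mmp12 and Mmp19 were the exceptions.

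**Figure D1:**
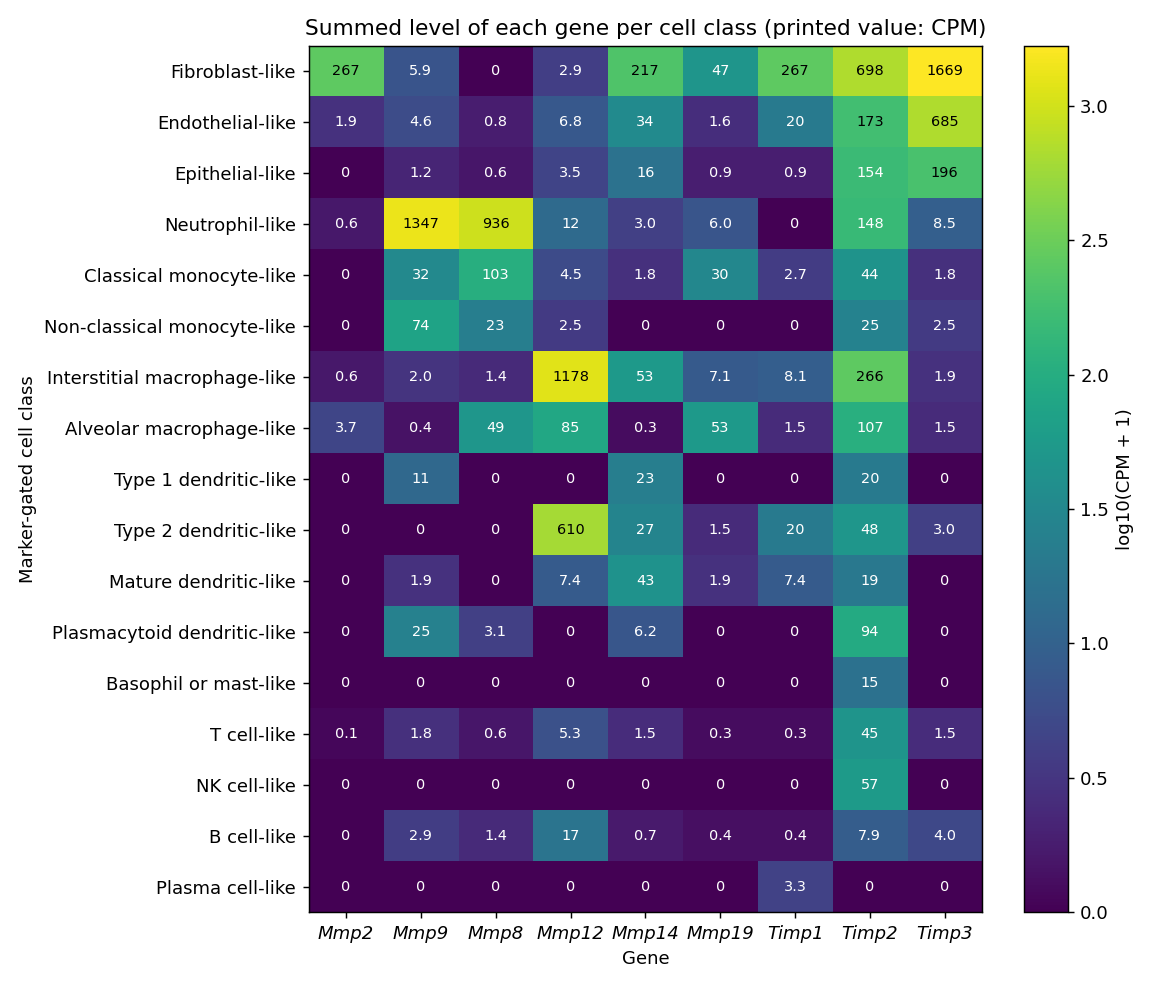
Level of each gene (columns) in each of the 17 marker-gated classes (rows). Each cell prints the CPM and its colour gives log10(CPM + 1). The fibroblast-like row holds the highest value for 5 genes, Mmp8 and Mmp9 peak in the neutrophil-like row, and Timp2 alone is above 20 CPM in most rows.

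The 2 gelatinases, enzymes that cut denatured collagen and the collagen of basement membranes, had their highest transcript levels in different classes. Mmp2 reached 267 CPM in fibroblast-like cells (95% interval 215 to 328, 91 UMIs in 94 cells). The next class, alveolar macrophage-like, stood at 3.68 CPM (25 UMIs), a difference of 6.18 on the log2 scale (5.53 to 6.88). Mmp2 had 0 UMIs in 11 of the 17 classes, epithelial-like cells among them, where 0 UMIs allow up to 0.884 CPM. Mmp9 reached 1347 CPM in neutrophil-like cells (1292 to 1404, 2227 UMIs). It was 73.9 CPM in non-classical monocyte-like cells (29 UMIs in 17 of 178 cells) and 31.6 CPM in classical monocyte-like cells (35 UMIs in 13 of 354 cells). Plasmacytoid dendritic-like cells had 24.95 CPM (8 UMIs in 3 of 102 cells), and the last 2 classes did not differ beyond counting error. The step from neutrophil-like cells to the next class was 4.19 on the log2 scale (3.66 to 4.77). In fibroblast-like cells Mmp9 had 2 UMIs.

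S100a8, an abundant neutrophil transcript, was present at 2485 CPM in non-classical monocyte-like cells and 953 CPM in classical monocyte-like cells, against 76855 CPM in neutrophil-like cells. Mmp9 amounted to 29.7 and 33.2 UMIs per 1000 S100a8 UMIs in the 2 monocyte-like classes and to 17.5 in neutrophil-like cells. Classes with less Mmp9 but at least 1 UMI lay on both sides of the monocyte-like values. The ratio was 37.2 in B cell-like, 38.5 in plasmacytoid dendritic-like, 39.6 in endothelial-like, 40.7 in interstitial macrophage-like and 143 in mature dendritic-like cells. It was 18.9 in T cell-like, 15.3 in type 1 dendritic-like, 13.9 in fibroblast-like, 13.2 in epithelial-like and 2.57 in alveolar macrophage-like cells. These ratios rest on 1 to 17 Mmp9 UMIs per class. The part of free or neutrophil-derived RNA in the Mmp9 of monocyte-like cells was not tested.

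Mmp8, the neutrophil collagenase, reached 936 CPM in neutrophil-like cells (890.4 to 984, 1548 UMIs), a log2 difference of 3.18 (2.91 to 3.47) over classical monocyte-like cells at 103 CPM. Alveolar macrophage-like cells followed at 49.0 CPM (43.8 to 54.5, 333 UMIs) and non-classical monocyte-like cells at 22.9 CPM. Each of these steps was larger than counting error. The order of the 2 enzymes therefore differed below the leading class. Alveolar macrophage-like cells held 333 UMIs of Mmp8 and 3 of Mmp9, and 285 Mmp8 UMIs per 1000 S100a8 UMIs against 12.2 in neutrophil-like cells. Classical monocyte-like cells held 108 Mmp8 UMIs per 1000 S100a8 UMIs.

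The neutrophil-like class was then divided by secondary granule genes, which are transcribed while neutrophils mature. A UMI of Camp, Ngp or Ltf was found in 142 of its 1384 cells. Mmp8 was 1915 CPM in these cells and 766 CPM in the other 1242, a log2 difference of 1.32 (1.16 to 1.48). For Mmp9 the difference was smaller, at 1490 CPM (1341 to 1651) against 1322 CPM (1263 to 1384), or 0.17 on the log2 scale (0.01 to 0.34). Lcn2, whose product binds Mmp9, was 4581 against 2318 CPM. The general neutrophil genes S100a8 and Retnlg were higher in the same cells too, by 0.83 and 1.12 on the log2 scale. The chemokine receptor gene Cxcr2 was lower in the cells with granule UMIs, at 1392 against 1643 CPM. Cxcr2 and Retnlg were gate markers of this class, and S100a8 was one of its further markers. The part of gating in their values was not tested. Cells with a granule UMI were also deeper, with a median of 1350.5 against 881 UMIs, and the part of depth in this division was not tested.

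Mmp12, the macrophage elastase, reached 1178 CPM in interstitial macrophage-like cells (1155 to 1203, 9285 UMIs in 1805 cells). Type 2 dendritic-like cells had 610 CPM (552 to 672, 403 UMIs), lower by a log2 difference of 0.95 (0.81 to 1.10). Alveolar macrophage-like cells had 85.3 CPM, and 94.1% of their 580 UMIs lay in 122 cells (10% of the class), with up to 68 in 1 cell. The remaining classes were at or below 16.6 CPM, the value in B cell-like cells, where 46 UMIs came from 11 cells and 1 cell held 23. Per 1000 UMIs of C1qa, a complement gene of macrophages, Mmp12 amounted to 284 UMIs in interstitial macrophage-like, 460.0 in B cell-like and 4333 in type 2 dendritic-like cells. The ranking was not the same under every placement of cells in classes. With Louvain clusters at a resolution of 0.5 in place of gates, a cluster of 1513 cells named type 2 dendritic-like had 1446 CPM and a cluster named interstitial macrophage-like had 754.5 CPM. By the gates the first of these held 734 interstitial macrophage-like, 88 type 2 dendritic-like and 684 unclassed cells.

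Within the gated interstitial macrophage-like class, those 2 clusters took 734 and 1006 cells, and the 9 genes had been held out of the clustering. Mmp12 was 1609 CPM (1568 to 1650.4) in the 734 cells and 755 CPM (727 to 783) in the 1006 cells. Timp2 ran the other way, at 164 CPM (151 to 177) and 376 CPM (356 to 396). Mmp14 was level, at 52.7 and 54.0 CPM, a log2 difference of -0.03 (-0.32 to 0.26). Timp1 was 11.9 CPM (44 UMIs) and 3.93 CPM (15 UMIs). The 734 cells had less C1qa (2591 against 5804 CPM) and Pf4 (9.19 against 504 CPM). They had more of the monocyte receptor gene Ccr2 (286 against 169.7 CPM) and of H2-Ab1 (10855 against 8309 CPM). Cd209a, a gate marker of type 2 dendritic-like cells, was also higher in them, at 10.5 against 1.57 CPM (39 and 6 UMIs). Since the clusters were drawn from these cells, the values are a description.

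**Figure D2:**
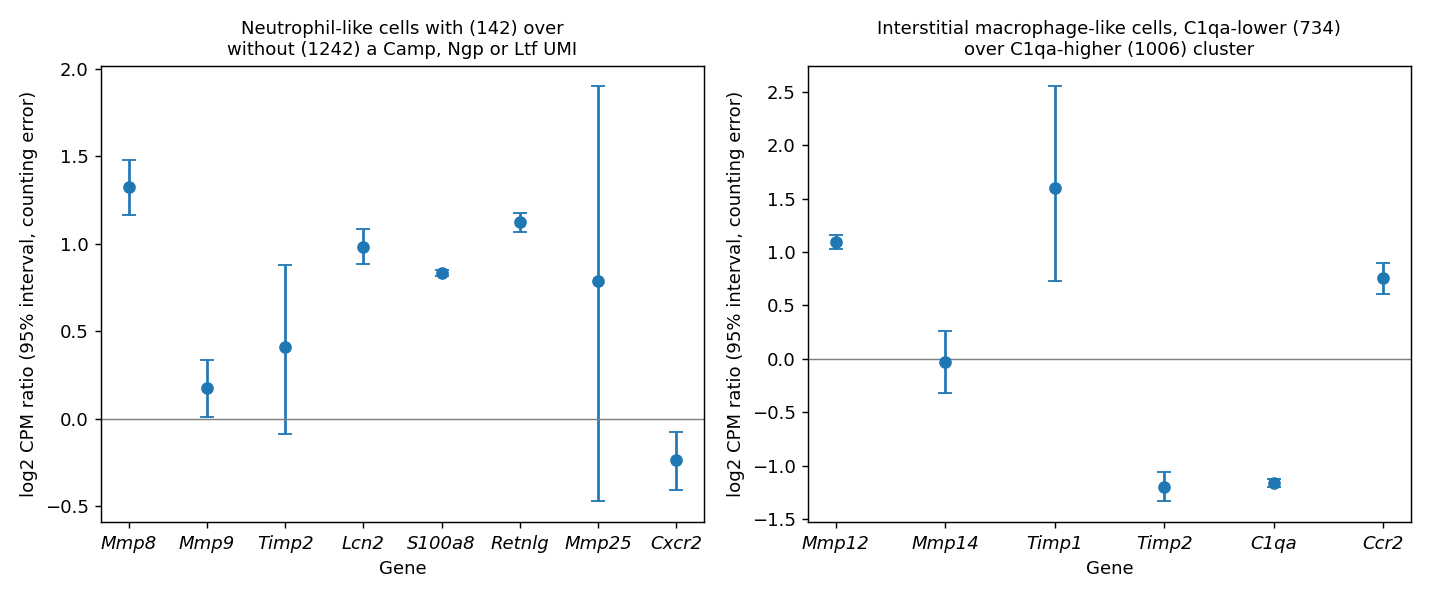
log2 CPM ratios (y axis) of named genes (x axis) within 2 classes, as points with exact 95% intervals that cover counting error. In neutrophil-like cells with over without a granule UMI (left), Mmp8 lies at 1.32 and Mmp9 at 0.17. In interstitial macrophage-like cells of the C1qa-lower over the C1qa-higher cluster (right), Mmp12 lies above 0 and Timp2 below it.

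Mmp14, the membrane-type enzyme that activates pro-Mmp2, reached 217 CPM in fibroblast-like cells (170.4 to 272, 74 UMIs), a log2 difference of 2.04 (1.67 to 2.40) over interstitial macrophage-like cells at 52.7 CPM (47.7 to 58.0, 415 UMIs). Mature dendritic-like cells had 42.6 CPM, endothelial-like cells 34.1 CPM, type 2 dendritic-like cells 27.2 CPM, type 1 dendritic-like cells 22.6 CPM and epithelial-like cells 15.6 CPM. From interstitial macrophage-like cells down to epithelial-like cells, no neighbours in this order differed beyond counting error. Classes further apart did, since the intervals of interstitial macrophage-like, endothelial-like (28.4 to 40.6 CPM) and epithelial-like cells (11.7 to 20.4 CPM) did not overlap. Alveolar macrophage-like cells stood apart from interstitial macrophage-like cells, with 2 UMIs of Mmp14 or 0.294 CPM. Mmp2 and Mmp14 thus shared their leading class.

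Mmp19, a secreted metalloproteinase, was 52.9 CPM in alveolar macrophage-like cells (47.6 to 58.7, 360 UMIs). Fibroblast-like cells had 46.9 CPM (26.8 to 76.2, 16 UMIs) and classical monocyte-like cells 29.8 CPM (20.5 to 41.9), and neither step in the order exceeded counting error. The intervals of alveolar macrophage-like and classical monocyte-like cells did not overlap. The log2 difference between the leading class and the next was 0.17, with an interval from -0.55 to 1.00. Interstitial macrophage-like cells were lower, at 7.11 CPM. The transcripts of Mmp8, Mmp12 and Mmp19 could be compared within alveolar macrophage-like cells. After thinning each cell to 1000 UMIs, an Mmp19 UMI was found in 3.2% of cells with Mmp8 (0.39 to 11.2%) and 4.9% of cells without, and in 7.4% of cells with Mmp12 (2.1 to 17.9%) and 4.7% of cells without, with wide intervals that held the latter values.

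Timp1, an inhibitor often induced by inflammatory signals, was 267 CPM in fibroblast-like cells (215 to 328, 91 UMIs). Endothelial-like cells (19.8 CPM, 73 UMIs) and type 2 dendritic-like cells (19.7 CPM, 13 UMIs) followed and did not differ from each other beyond counting error. The step from fibroblast-like cells was 3.76 on the log2 scale (3.30 to 4.22). Neutrophil-like cells, the leading class of Mmp8 and Mmp9, held 0 UMIs of Timp1, which allows up to 1.81 CPM.

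Timp2, the adaptor of Mmp14, was at 20 CPM or more in 13 of the 17 classes, the largest number among the 9 genes, and at 0 UMIs only in the 43 plasma cell-like cells. Fibroblast-like cells had 698 CPM (612 to 792, 238 UMIs), a log2 difference of 1.39 (1.19 to 1.58) over interstitial macrophage-like cells at 266 CPM (255 to 278, 2097 UMIs). Endothelial-like cells had 173 CPM, epithelial-like cells 154 CPM, neutrophil-like cells 148 CPM and alveolar macrophage-like cells 107 CPM. The values of epithelial-like and neutrophil-like cells did not differ beyond counting error. Lymphoid classes were lower, with 56.8 CPM in NK cell-like, 45.0 CPM in T cell-like and 7.92 CPM in B cell-like cells. Low values were not particular to them. The dendritic-like, monocyte-like and basophil or mast-like classes ran from 93.6 CPM (plasmacytoid dendritic-like) to 15.0 CPM (basophil or mast-like). Among these, type 2 dendritic-like cells had 48.4 CPM and classical monocyte-like cells 44.3 CPM.

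Timp3, an inhibitor that binds to the extracellular matrix, was 1669 CPM in fibroblast-like cells (1534 to 1812, 569 UMIs), 685 CPM in endothelial-like cells (658 to 712, 2531 UMIs) and 196 CPM in epithelial-like cells (181 to 211, 665 UMIs). Both steps exceeded counting error, at 1.28 (1.15 to 1.42) and 1.81 (1.68 to 1.93) on the log2 scale. The next class, neutrophil-like, was at 8.47 CPM, lower by 4.53 (3.77 to 5.41). Timp3 was thus carried by the 3 non-hematopoietic classes of at least 20 cells. A further 7 mural-like cells, too few to be ranked, held 13 UMIs of Timp3 (707 CPM, 377 to 1209.7 CPM).

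The endothelial-like and epithelial-like classes were divided again by markers. Aerocyte-like cells, which resemble the capillary cells next to alveolar gas exchange surfaces, had 2934 CPM of Timp3 (2689.8 to 3195, 531 UMIs in 93 cells). General capillary-like cells had 559 CPM (533 to 586, 1725 UMIs in 1459 cells), lower by a log2 difference of 2.39 (2.25 to 2.53). Timp2 followed the same order, 646 against 138 CPM, a log2 difference of 2.22 (1.92 to 2.52). Mmp14 did not, at 5.53 CPM (1 UMI) in aerocyte-like and 32.7 CPM (101 UMIs) in general capillary-like cells. That log2 difference was -2.57, with a wide interval from -7.88 to -0.06. As a sub-class, aerocyte-like cells had more Timp3 than the fibroblast-like class (1669 CPM, 1534 to 1812), which led among the undivided classes. The 32 large-vessel-like cells had 191 CPM of Timp3, below general capillary-like cells by a log2 difference of -1.55 (-2.39 to -0.83). The 17 lymphatic-like cells had 1385 CPM of Timp3 (53 UMIs), 575 CPM of Timp2 (22 UMIs) and 235 CPM of Mmp14 (9 UMIs), each above general capillary-like cells beyond counting error. In the epithelium, ATI-like cells exceeded ATII-like cells for Timp3 (355 against 157 CPM, log2 difference 1.18, 0.93 to 1.42), Timp2 (229 against 132 CPM, 0.80, 0.50 to 1.08) and Mmp14 (30.8 against 10.4 CPM, 1.57, 0.64 to 2.47). Median depths were 1830.0 UMIs in aerocyte-like and 1905 in general capillary-like cells, and 2657 in the ATI-like and 4743 in the ATII-like group.

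**Figure D3:**
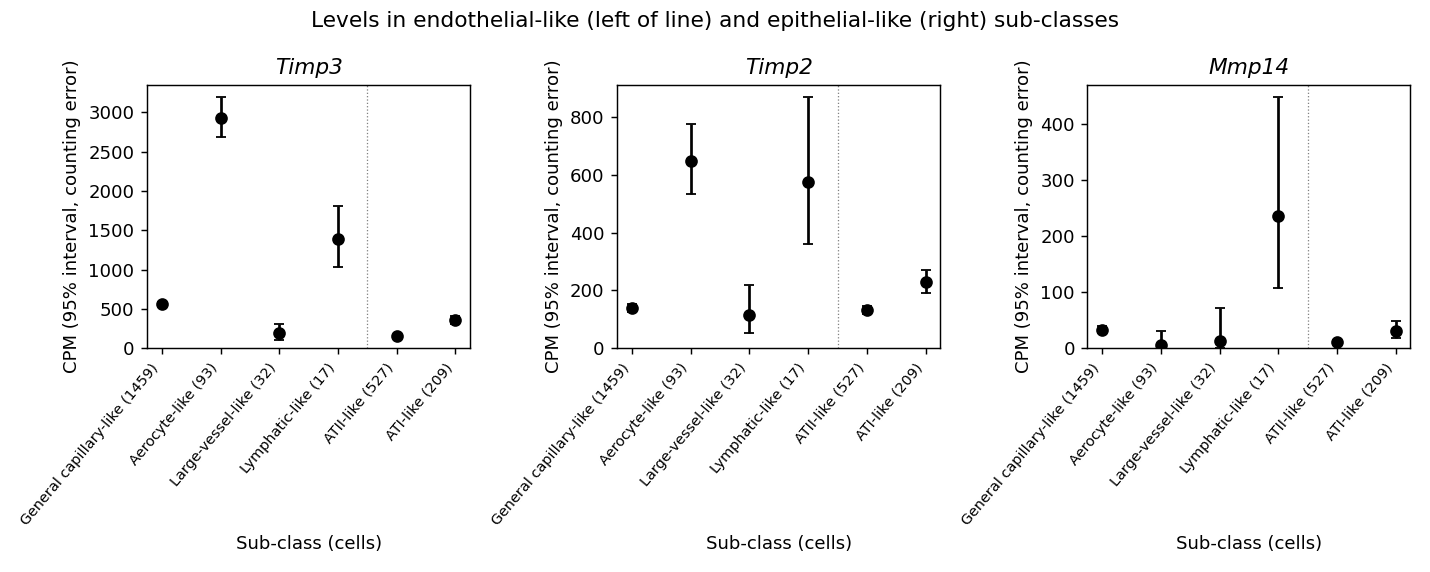
CPM (y axes) of Timp3, Timp2 and Mmp14 in 4 endothelial-like and 2 epithelial-like sub-classes (x axes, with cells), as points with exact Poisson 95% intervals that cover counting error. Aerocyte-like cells have 2934 CPM of Timp3 and 646 CPM of Timp2, and ATI-like cells lie above ATII-like cells in each panel.

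The class with the highest level was not always the one that held most transcripts, since the fibroblast-like class had 94 cells. Highest level and largest source coincided for 6 of the 9 genes. Neutrophil-like cells held 94.0% of the classed UMIs of Mmp9 (93.02 to 94.96%) and 76.3% of those of Mmp8 (74.4 to 78.1%), interstitial macrophage-like cells 89.1% of Mmp12 (88.5 to 89.7%), alveolar macrophage-like cells 73.6% of Mmp19 (69.5 to 77.5%) and fibroblast-like cells 70.0% of Mmp2 (61.3 to 77.7%). For Timp1 the fibroblast-like class led with 34.1% (28.4 to 40.1%), but its 91 UMIs and the 73 of endothelial-like cells were not separated by counting error. Interstitial macrophage-like cells held more UMIs than fibroblast-like cells for Mmp14 (55.6% against 9.9%) and Timp2 (42.0% against 4.8%), and endothelial-like cells for Timp3 (65.7% against 14.8%). The second source of Mmp8 was alveolar macrophage-like cells, with 16.4%. These shares describe the cells recovered after digestion and sorting. They depended on filters and classes, and 28 of 72 recomputed shares left the intervals given here. Cells in no class held 12.3% (Timp3) to 39.5% (Mmp19) of the UMIs of a gene in all kept cells, and 34.1% for Mmp12.

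**Figure D4:**
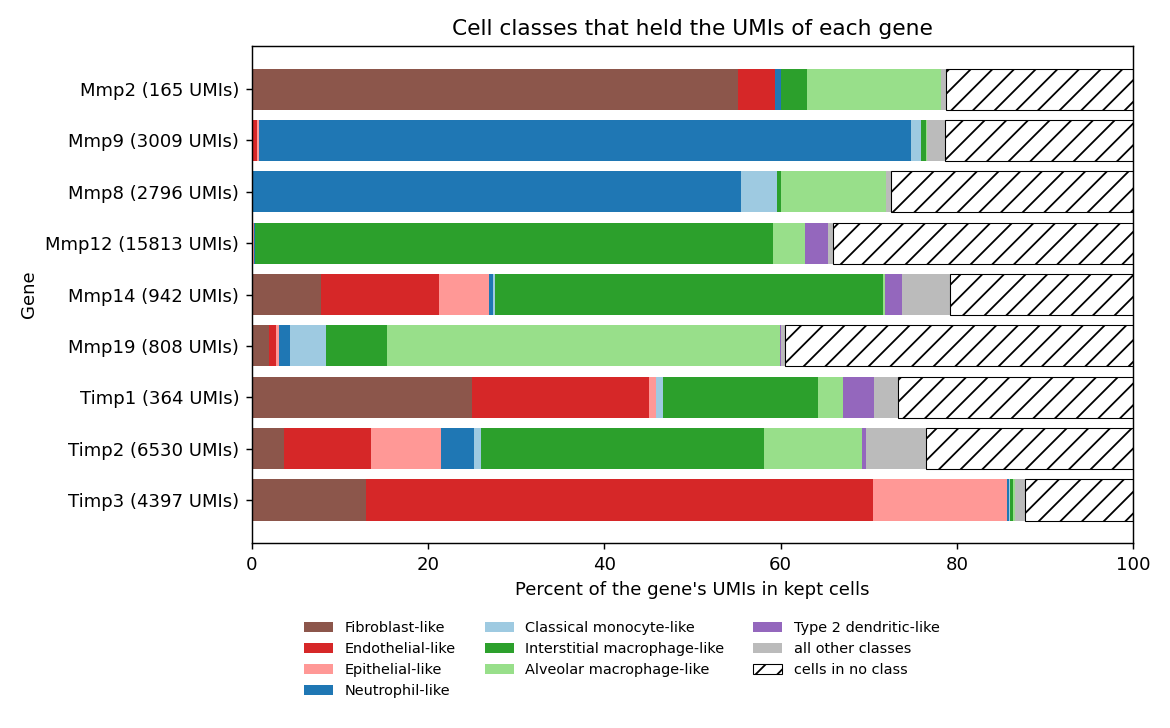
Percent of the UMIs of each gene in kept cells (x axis) held by each class, as stacked bars with 1 bar per gene (y axis, with total UMIs) and a hatched part for cells in no class. Interstitial macrophage-like cells take the largest part of Mmp12, Mmp14 and Timp2, and endothelial-like cells that of Timp3.

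Shares of cells with a UMI were compared after thinning to 1000 UMIs per cell, with B cell-like cells as the class taken to lack these genes. Thinning left out shallower cells, and kept 579 of 1384 neutrophil-like, 90 of 94 fibroblast-like, 1787 of 1805 interstitial macrophage-like and 1434 of 1685 B cell-like cells. Mmp9 was found in 68.6% of the 579 deeper neutrophil-like cells (64.6 to 72.3%) and Mmp8 in 47.8% (43.7 to 52.0%), against 0.139% of 1434 B cell-like cells for each. Thinned to 500 UMIs, which kept all 1384 neutrophil-like cells, the shares were 46.9% for Mmp9 and 25.6% for Mmp8. At 1000 UMIs, Mmp8 was found in 52.4% of the neutrophil-like cells with Mmp9 (47.4 to 57.4%) and 37.9% of those without (30.8 to 45.4%). At 500 UMIs these values were 28.7% (25.2 to 32.3%) and 22.9% (19.9 to 26.1%), with intervals that overlapped. Mmp12 was found in 51.0% of 1787 interstitial macrophage-like cells (48.7 to 53.4%) and 25% of 132 type 2 dendritic-like cells (17.9 to 33.3%), against 0.558% of B cell-like cells. Timp3 was found in 68.9% of 90 fibroblast-like cells (58.3 to 78.2%), 37.2% of 1595 endothelial-like cells and 17.4% of 768 epithelial-like cells, against 0.279% of B cell-like cells. Timp2 was found in 40.0% of fibroblast-like cells (29.8 to 50.9%), Mmp2 in 24.4%, Mmp14 in 22.2% and Timp1 in 13.3%. The shares in B cell-like cells were 0.558% for Timp2 and 0 of 1434 for the other 3 genes, which allows up to 0.209%. Mmp19 was found in 4.84% of alveolar macrophage-like cells (3.70 to 6.21%), against 0.0697% of B cell-like cells. Without thinning the shares were 72.4% for Mmp12 in interstitial macrophage-like cells and 19.9% for Mmp19 in alveolar macrophage-like cells. Over all 1384 neutrophil-like cells they were 69.1% for Mmp9 and 38.8% for Mmp8. Median depths before thinning were 4212, 5604.5 and 909 UMIs in these classes and 1386 in B cell-like cells.

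**Figure D5:**
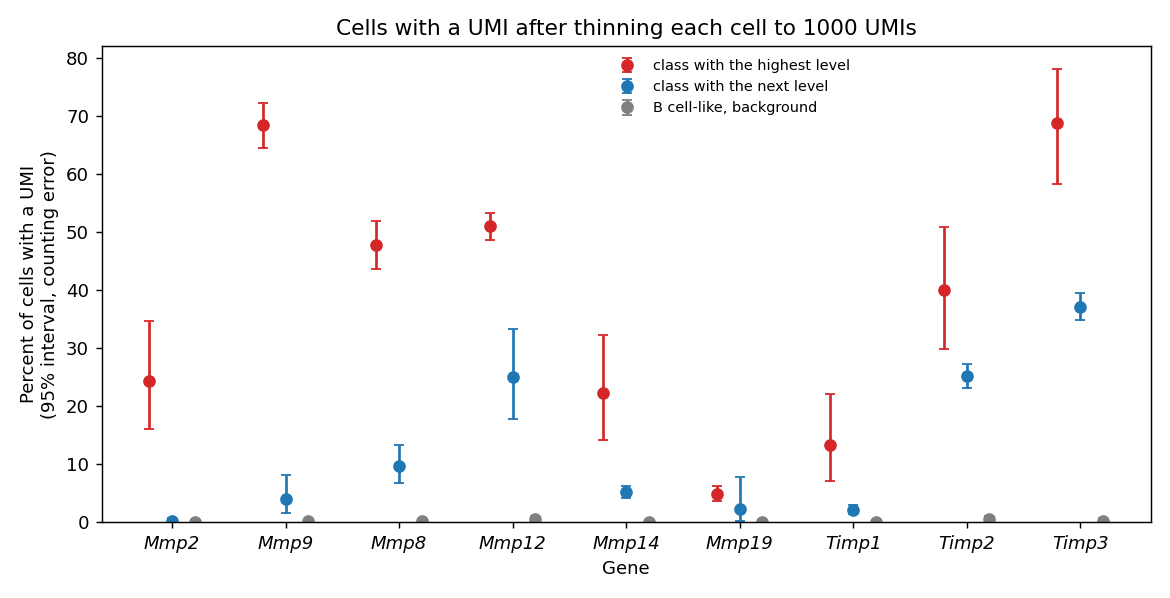
Percent of cells with a UMI of each gene (y axis) after thinning to 1000 UMIs, in the class with the highest level, the class with the next level and B cell-like cells (colours), with exact binomial 95% intervals that cover counting error. Leading classes range from 4.84% (Mmp19) to 68.9% (Timp3), while B cell-like cells stay under 1%.

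Other genes of the system were read from lists. Of 16 further metalloproteinases, 6 reached 20 CPM in some class and 10 stayed under 5 CPM. Mmp25, a membrane-anchored enzyme, was highest, with 94.4 CPM in mature dendritic-like cells, and Mmp23 had 90.9 CPM in fibroblast-like cells. Of 5 genes listed beside the inhibitors, 3 reached 20 CPM and were highest in fibroblast-like cells. They were Pcolce, which enhances procollagen processing and does not inhibit metalloproteinases, at 334 CPM, the membrane-bound inhibitor gene Reck at 49.9 CPM and the protease inhibitor gene Tfpi2 at 20.5 CPM. Of 8 activators of pro-enzymes, 6 reached 20 CPM. Furin, which cleaves the pro-domain of Mmp14, was highest in basophil or mast-like cells, at 813 CPM, and was 67.4 CPM in fibroblast-like, 219.6 CPM in neutrophil-like, 208 CPM in interstitial macrophage-like and 204 CPM in alveolar macrophage-like cells. Plat, a plasminogen activator, was 273 CPM in fibroblast-like cells. The highest value of this list was that of Klk1 in plasmacytoid dendritic-like cells (1135 CPM), where Klk1 was a gate marker.

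Among 4 genes of plasminogen activator control, Serpine2, an inhibitor, was 659.8 CPM in fibroblast-like cells, and Plaur, the urokinase receptor, was 629 CPM in neutrophil-like, 277 CPM in alveolar macrophage-like and 158 CPM in interstitial macrophage-like cells. All 10 partner and docking genes reached 20 CPM. Lcn2, whose product forms a complex with Mmp9, was 2653 CPM in neutrophil-like, 1113 CPM in epithelial-like and 179 CPM in fibroblast-like cells. Cd44, a surface receptor that can hold Mmp9, was 1648 CPM in neutrophil-like, 1055 CPM in alveolar macrophage-like and 167 CPM in both fibroblast-like and interstitial macrophage-like cells. Cd63, a receptor for Timp1, was highest in basophil or mast-like cells, at 1405 CPM, and was 801 CPM in fibroblast-like, 1052 CPM in alveolar macrophage-like, 634 CPM in interstitial macrophage-like and 231 CPM in neutrophil-like cells. Lrp1, an uptake receptor for metalloproteinases and Timp3, was 413 CPM in fibroblast-like and 408 CPM in non-classical monocyte-like cells. It was 312 CPM in alveolar macrophage-like and 163 CPM in interstitial macrophage-like cells. Bsg was highest in epithelial-like cells, at 823 CPM, with 428 CPM in fibroblast-like cells and 87.7 to 198 CPM in the neutrophil-like and the 2 macrophage-like classes. Cd151 was 163 CPM in endothelial-like and 132 CPM in fibroblast-like cells, and Lgals3bp was 104 CPM in alveolar macrophage-like and 64.0 CPM in interstitial macrophage-like cells.

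Of 10 matrix substrates, 7 were highest in fibroblast-like cells and 3 in endothelial-like cells. Col3a1 (3364 CPM), Col1a2 (2572 CPM) and Col1a1 (2331 CPM) were gate markers of the fibroblast-like class. The elastin gene Eln, a check marker of large-vessel-like cells, had 2088 CPM there, the fibronectin gene Fn1 1677 CPM, Fbn1 413 CPM and Lamb1 182 CPM. Fn1 also had 1109 CPM in classical monocyte-like, 177 CPM in interstitial macrophage-like and 55.3 CPM in alveolar macrophage-like cells. The basement membrane genes Col4a1 and Col4a2 were 548 and 446 CPM in fibroblast-like cells and 1619 and 1164 CPM in endothelial-like cells. Of 14 related ADAM and ADAMTS proteases, 12 reached 20 CPM. Adamts1 was highest, with 922.5 CPM in endothelial-like and 273 CPM in fibroblast-like cells. Fibroblast-like cells also had Adamts2 (205 CPM), Adam10 (67.4 CPM), Adamts5 (61.6 CPM) and Adamts4 (58.7 CPM), and neutrophil-like cells had Adam8 (419 CPM), Adam19 (201 CPM), Adam17 (65.9 CPM) and Adam10 (51.4 CPM). Adam17, the enzyme that sheds Tnf and that Timp3 inhibits, was 158 CPM in alveolar macrophage-like and 70.3 CPM in interstitial macrophage-like cells, where Adam10 was 105 and 57.2 CPM. Adam10 and Adam15 were highest in endothelial-like cells, at 132 and 211 CPM. Adam15 was 88.7 CPM in interstitial macrophage-like and Adam9 55.1 CPM in alveolar macrophage-like cells.

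Of 10 neutrophil granule and surface genes, 9 reached 20 CPM in a class and 5 of these were highest in neutrophil-like cells. There Ngp was 485 CPM, Arg2 436 CPM, Camp 325.5 CPM, Itgam 264 CPM (270.1 CPM in non-classical monocyte-like cells), Ltb4r1 139 CPM (140.2 CPM in those cells), Cd177 129.5 CPM and Ltf 97.4 CPM. Chil3 had the highest value of the list, 24643 CPM in alveolar macrophage-like cells, of which it was a check marker, and was 1045 CPM in neutrophil-like, 93.2 CPM in interstitial macrophage-like and 52.8 CPM in fibroblast-like cells.

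The genes most like each member in profile were taken over the 16 classes of at least 50 cells, by Pearson correlation of log2(CPM + 10) among 10112 genes with at least 20 CPM in a class. The points share one library pool and differ in depth, and the values are a description. Mmp2 was most like Col6a3 (a check marker of fibroblast-like cells), Sult5a1 and Enpp3 (r of 0.998 to 0.999), Timp3 was most like Antxr1, Sparc and Osmr (0.993 to 0.994), and Timp1 was most like Cygb, Plcd1 and Nrep (0.953 to 0.965). Mmp9 was most like Retnlg, a gate marker, and then Slfn4 and Trim30b (0.972 to 0.984), and Mmp8 was most like Gm5150 and Sgms2 (0.957 to 0.963). Mmp12 was most like Dpys, Rnase2a and Fcrls (0.888 to 0.931), Mmp14 was most like Ift122, Cpq and Arl3 (0.902 to 0.921) and Mmp19 was most like Dennd2a, C4b and Best1 (0.858 to 0.936). Timp2, the gene with the widest profile, had the lowest values, with Dtx4, Nat9 and Pkd2 at 0.818 to 0.822.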

How the data were processed

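The authors dissociated tumors of 4 mice, made Chromium 3′ v3 libraries, aligned reads to mm10 with GFP and TdTomato added and deposited UMI counts from Cell Ranger 3.0.2, as 1 matrix; no file used here links its cells to mice. Its strand setting was not given in the sources used here.

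Cells with at least 200 genes, and at most the 98th percentile of genes (2713) and of mitochondrial share over 13 genes (13.4%), were kept. A cell joined the class with the most of 8 gate markers detected, with a minimum of 3 and a margin of 2; within epithelial-like and endothelial-like cells, sub-lists needed 2 and a margin of 1. Minimum and margin were set on marker genes after the data were seen. At the margin of exactly 2 stood 3915 cells, and 1992 unclassed cells were 1 marker short of it. Doublets were left in. A Scrublet run in scanpy 1.11.5, with 6% expected, marked 210 of the 20299 cells tested (1.03%), and their removal was an alternative. tdTomato-positive cells outside the epithelium, which the study left out, were kept.

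UMIs were summed per class and scaled to CPM, with exact Poisson intervals; shares have Clopper-Pearson and ratios exact conditional intervals (95%, scipy 1.17.1), and all cover counting error only. For 0 UMIs, 3 UMIs set the limit. Cells were thinned to 1000 UMIs for shares of cells. The ratio script was tested on simulated data. Louvain clusters (Seurat 5.3.0, R 4.3.3, 2000 variable genes, 25 dimensions, resolution 0.1, the 9 genes held out) replaced the gates in an alternative, and other cell filters, gates, doublet removal, weights and thinning depths were also tried. The 9 genes, marker lists and pathway lists were chosen with earlier results of these data known. Named genes were the 9 members, the highest gene of each list, list genes at 50 CPM or more in a leading class, and the 3 genes most like each member; the splits of neutrophil-like and interstitial macrophage-like cells, and the genes shown for them, were chosen after values were seen. Some alleles and genes that these rules would name are not reported here.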

Additional observations from a re-analysis of the deposited data

How the results depend on the processing

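Across 8 alternative cell filters, gates and clusterings, the class with the highest level stayed in 71 of 72 cases and the largest source in 69 of 72. The count of genes at least 2-fold above the next class, 7 in the main setting, did not always stay. It was 8 with no upper cut-offs, where Mmp12 passed at a log2 ratio of 1.06. It was also 8 with Louvain clusters at a resolution of 0.1, 6 at a resolution of 0.5, and 7 in the other alternatives. The values moved more often. Of 72 recomputed source shares, 28 left the original counting interval, as did 16 of 81 levels. The neutrophil-like share of Mmp8 went from 76.3% to 62.6% with Louvain clusters at a resolution of 0.1. At a resolution of 0.5 the interstitial macrophage-like share went from 89.1% to 18.9% for Mmp12 and from 55.6% to 23.4% for Mmp14. Of 78 recomputed log2 ratios between the 2 leading classes of a gene, 71 stayed inside the original counting interval. Clusters at a resolution of 0.1 held 12 named classes with no type 2 dendritic-like one, and 90 gated type 2 dendritic-like cells lay in the interstitial macrophage-like cluster. The order of these classes for Mmp12 was therefore not put to a check there, although that case counts among the 71 of 72 for the highest class. The 78 ratios hold none for Mmp12 from these clusters. They also hold none for Mmp9 over non-classical monocyte-like cells from clusters at either resolution. The reversal was Mmp12, interstitial macrophage-like over type 2 dendritic-like, which went from 0.95 to -0.94 with Louvain clusters at a resolution of 0.5, where the cluster named type 2 dendritic-like held 734 gated interstitial macrophage-like cells. The same clusters gave 0.74 for Timp2 (1.39 with gates) and moved the largest source of Mmp12 and Mmp14 to the type 2 dendritic-like cluster. The clusters at 0.1 gave 3.87 for Mmp8 and made interstitial macrophage-like cells the largest source of Timp1. A margin of 1 marker gave 0.78 for Mmp12 and 1.45 for Timp3. The mean of per-cell CPM gave 2.44 for Mmp14 and 1.14 for Timp3. The margin of 1 and the resolution of 0.5 were added after the data were seen, and the causes were not tested. Shares of cells with a UMI followed the thinning depth, and 5 of 27 stayed within the original interval. No paired analysis was possible because cells are not mapped to mice. Values from under 20 UMIs, such as Mmp19 in fibroblast-like cells, are limited by depth.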

Other observations

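TdTomato, the Cre reporter, was found in 1011 of 1198 alveolar macrophage-like cells after thinning to 1000 UMIs. Mmp8 was 53.5 CPM in these cells and 27.2 CPM in the other 187, a log2 difference of 0.97 (0.44 to 1.56). Mmp12 was 79.6 against 113 CPM, a log2 difference of -0.51 (-0.79 to -0.21). In the whole class 94.1% of the Mmp12 UMIs lay in 122 of 1214 cells, with up to 68 in 1 cell. A few cells could therefore move this difference, and its interval, which counts UMIs as independent, does not cover that. For Mmp19 (54.2 against 47.4 CPM) and Timp2 (106 against 111 CPM) the intervals of the difference held 0. Cells with the reporter were shallower, with a median of 5547 against 6402 UMIs, and the part of depth or free RNA was not tested.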
